A study of Mus musculus with 14 samples.

Results

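The integrin and laminin genes of the mouse were examined in ATAC-seq peak lists from cell lines of small cell lung cancer. Members were the protein-coding genes of GRCm38 whose symbol is Itga or Itgb with a number or letter code, or Lama, Lamb or Lamc with a number. This rule found 37 genes, 26 integrin and 11 laminin genes, among 21883 protein-coding genes. The similarly named Itgb3bp, Itgb1bp1, Itgbl1, Itgb2l and Itgb1bp2 encode other proteins or do not follow the rule and were left out.

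ATAC-seq uses a transposase that inserts adapters into accessible DNA, and a peak marks a stretch where insertions pile up above the local background. The series holds 7 lines with 2 libraries each, 14 in all. All lines come from RPR2 mice, a name that in this field means deletion of Rb1, Trp53 and Rbl2, all tumor suppressor genes, and 4 of them also carry Nfibf/f, a conditional allele of the transcription factor gene Nfib. The title of the series asks which mechanisms of metastasis depend on NFIB. In the RPR2 group, lymph node metastases gave 12N1G and N2N1G, and a liver metastasis gave 1373M1. In the RPR2;Nfibf/f group, written Nfibf/f below, liver metastases gave 1398M1 and 1399M4, and lung tumors gave 1398P2 and 1399P1. The labels give neither an age, nor the Cre that acts on the alleles, nor the mouse behind each line. Liver was thus the one tissue with both genotypes. Lines 1398M1 and 1398P2 carry the same number, as do 1399M4 and 1399P1, and what it stands for is not stated. The labels do not tell whether a line's 2 libraries were separate cultures. Their spread may be technical, and the line was taken as the replicate.

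Integrins are surface receptors made of an alpha and a beta chain, and they tie the cytoskeleton to the matrix outside the cell. Laminins are trimers of an alpha, a beta and a gamma chain, and they form the sheet of the basement membrane that epithelial cells rest on. A tumor cell must cross that sheet to spread, and the set of receptors and matrix chains it makes is commonly studied in metastasis. Small cell lung cancer cells usually grow as floating clusters, and their adhesion to laminin through integrins is a known subject in this tumor.

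The peak lists of 13 libraries held 65009 to 84220 peaks each, and that of 1398P2 replicate 2 held 33558. Its background depth was the lowest too, at 0.507 fragments per bp against 0.632 to 1.134, so a peak missing there carries less weight. A gene end of Nfib, Rb1, Trp53 and Rbl2 was under a peak in each of the 14 libraries, and a peak list does not show which exons are deleted. Among 8 neuroendocrine markers, 7 had a gene-end peak in every library, and Ncam1 had one in 13. The other marker lists had fewer. Among the leukocyte markers, 2 of 8 had a gene-end peak in all libraries (Cd4 and Spi1). The same held for 1 of 5 endothelial (Kdr), 1 of 6 fibroblast (Col1a1) and 1 of 6 hepatocyte markers (Apoa1). It held for 3 of 6 lung epithelial markers (Sftpc, Foxj1 and Nkx2-1). Ptprc, Pecam1, Lum, Alb and Afp were among those with no gene-end peak in any library. In bulk libraries, fewer cells with an accessible site and less accessibility per cell cannot be told apart.

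Every one of the 37 genes had at least 1 accessible region, although 3399 protein-coding genes had none. A region here is a set of overlapping peaks that both libraries of at least 1 line shared, and a gene receives those within its body or 10 kb to either side. The members held 306 of the 79782 regions at protein-coding genes, a median of 3.71 regions per gene and library against 2 over all genes. Member genes were also longer, with a median of 62.5 kb against 17.2 kb, and per 100 kb of window they held 3.78 regions against 3.93. The count was higher at longer genes among the 37 (Spearman rho 0.41, a description over genes that are not independent).

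Per length, regions were densest at the integrins that bind laminin (Itga3, Itga6, Itga7, Itgb1 and Itgb4), at 7.25 per 100 kb of window. The laminin beta chains had 5.03 and the gamma chains 4.87. The collagen-binding integrins had 3.86, the leukocyte integrins with Itga4 and Itga9 had 3.75, and the receptors for RGD ligands such as fibronectin and vitronectin had 3.68. The laminin alpha chains, which carry the cell-binding end of the trimer and have long genes, had 2.60. In plain counts the order differed, with a median of 7.14 regions per gene at the alpha chains, 4 at the laminin-binding and at the collagen-binding integrins, 3.25 at the RGD receptors and 1.64 in the leukocyte group. Itga9, a receptor for tenascin and osteopontin, held 34 regions in all and between 15.5 and 20 per line. Itgb5 followed with 8 to 13 per line, and Itgax, a myeloid integrin, had the fewest, with 0 in all 3 RPR2 lines and in 1398M1. Summed over the 37 genes and scaled to the total of each line over all genes, the lines held between 141 (1398P2) and 177 (1373M1) regions. The RPR2 sums of 164, 152 and 177 and the Nfibf/f sums of 162, 147, 141 and 170 overlapped.

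**Figure D1:**
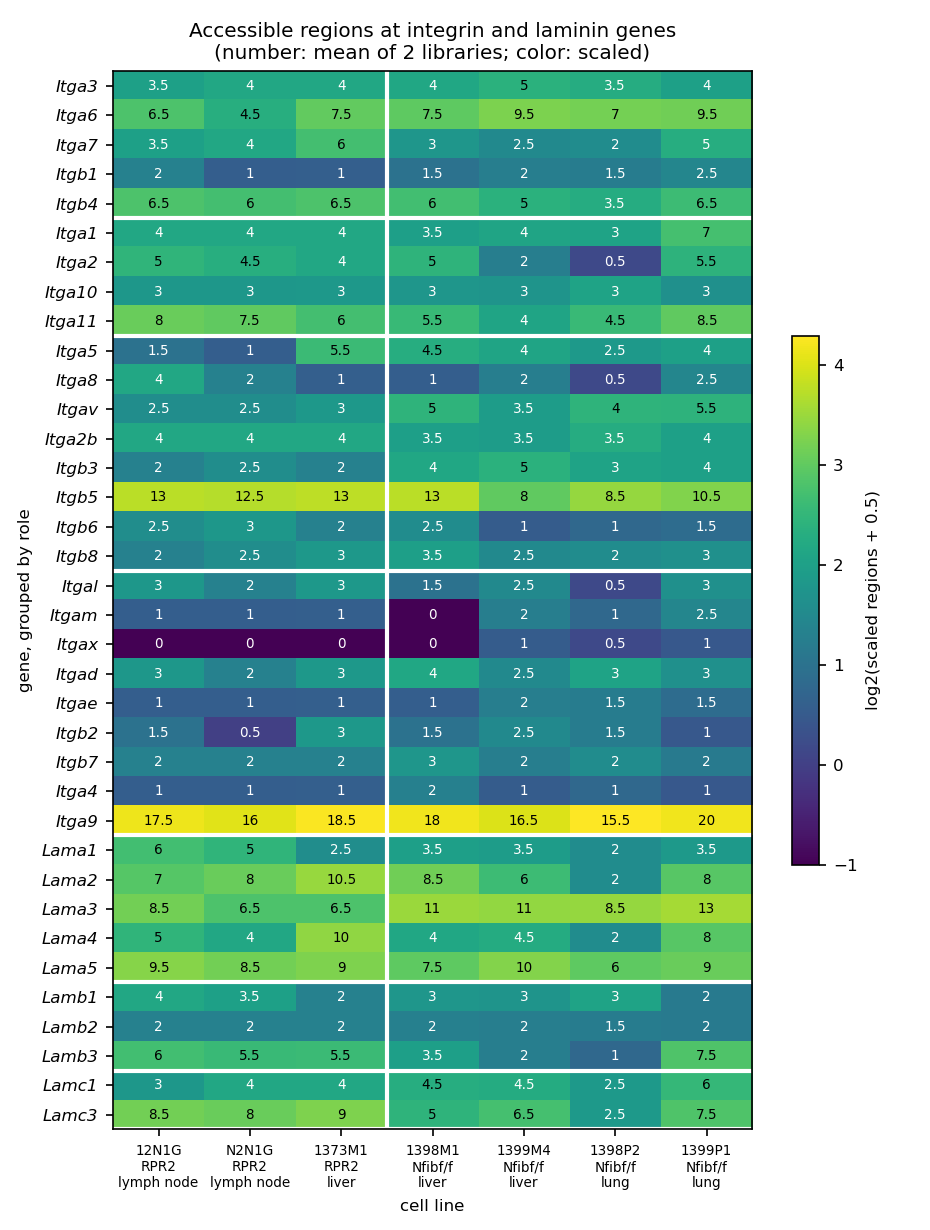
Accessible regions at the genes (rows, grouped by role in the order laminin receptors, collagen receptors, RGD receptors, leukocyte and Itga4/Itga9 integrins, then laminin alpha, beta and gamma chains) in the 7 lines (columns). Numbers are the mean of the 2 libraries before scaling, and color is log2 of the scaled value plus 0.5. Itga9 is bright in every line, at 15.5 to 20 regions, Itga10 has 3 in every line, and Itga5 is dark in both lymph node lines, at 1.5 and 1.

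The ends of the genes split the family. A peak within 1 kb of either end was present in all 14 libraries at 13 genes, in none at 7 and in some at 17. The 13 were the laminin receptors Itga3, Itga6 and Itgb1, the common beta chain, the collagen receptor Itga10, the RGD receptor chains Itgb3 and Itgb5, then Itga4 and Itga9, and the laminins Lama3, Lama5, Lamb2, Lamc1 and Lamc3. An end can be the start or the finish of a gene. At Itga10 the peak in all 14 libraries lay at the high-coordinate end. Its annotated start, at the low end, had a peak in 3 Nfibf/f libraries, replicate 1 of 1399M4, 1398P2 and 1399P1, and in no RPR2 library. No line had that peak in both libraries. The 7 without any were the leukocyte genes Itgal, Itgax, Itgae and Itgb7, the platelet gene Itga2b, and Itgav and Lama2. Itgav belongs there by the position of its annotated end alone, because a start annotated inside the gene had a peak in 13 of the 14 libraries. The end of Lama4, a laminin chain typical of vessels, had no peak in either library of 1373M1 and 1399M4. Itgam, a myeloid integrin, showed 0 of 6 RPR2 and 5 of 8 Nfibf/f libraries. Those peaks lay at its high-coordinate end, in a region that is also in the window of Itgax. Its annotated start, at the low end, had no peak in any library.

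**Figure D2:**
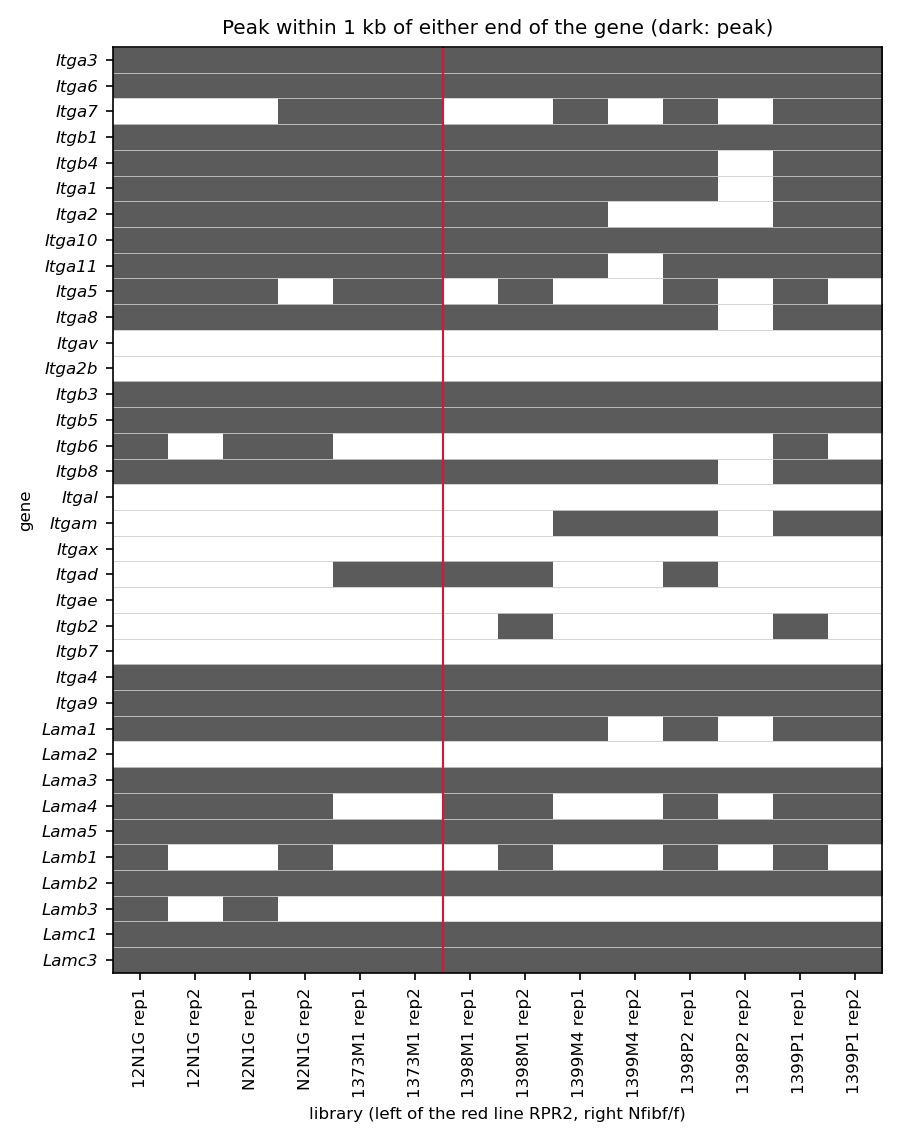
Presence (dark) or absence (white) of a peak within 1 kb of either annotated end of each gene (rows) in each library (columns), with RPR2 libraries left of the red line. Solid rows mark the 13 genes with a peak in all 14 libraries, blank rows the 7 with none, and the white cells of Lama4 include both libraries of 1373M1 and 1399M4.

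Promoter windows from RefSeq, 250 bases before to 50 bases after a transcription start on GRCm38.p6, were at hand for 23 of the 37 genes, 26 windows in all. A peak overlapped the window in all 14 libraries in 3 of 26 (11.5%) against 33.1% of 32815 windows of all genes, and in none in 7 of 26 (26.9%) against 45.8%. The member windows that lay between these extremes included 6 (23.1%, against 11.0%) with a peak in both libraries of one line and in neither of another. These 6 belonged to Lamb3, with a pair of overlapping windows, Itgb6, Itga11, Itga2 and Itga5, and they are printed here, with 1 window for Lamb3, because their peak came and went between lines. The windows were chr1:193301744-193302043 (plus strand) for Lamb3, chr2:60722554-60722853 (minus) for Itgb6, chr9:62677605-62677904 (plus) for Itga11, chr13:114932051-114932350 (minus) for Itga2 and chr15:103366742-103367041 (minus) for Itga5. Each is written 5′ to 3′, and capitals mark matches on either strand to the motifs named after them.
Lamb3: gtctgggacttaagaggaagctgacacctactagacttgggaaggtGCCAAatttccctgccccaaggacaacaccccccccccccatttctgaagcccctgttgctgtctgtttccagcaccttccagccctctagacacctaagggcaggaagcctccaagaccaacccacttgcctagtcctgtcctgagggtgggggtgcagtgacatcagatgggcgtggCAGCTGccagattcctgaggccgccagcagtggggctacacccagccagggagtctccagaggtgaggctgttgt
Itgb6: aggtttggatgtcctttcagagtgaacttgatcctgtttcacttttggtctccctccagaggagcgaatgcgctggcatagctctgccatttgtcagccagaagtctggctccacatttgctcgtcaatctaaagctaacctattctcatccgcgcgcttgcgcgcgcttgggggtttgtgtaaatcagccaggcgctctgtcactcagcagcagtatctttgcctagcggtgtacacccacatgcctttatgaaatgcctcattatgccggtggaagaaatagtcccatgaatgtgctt
Itga11: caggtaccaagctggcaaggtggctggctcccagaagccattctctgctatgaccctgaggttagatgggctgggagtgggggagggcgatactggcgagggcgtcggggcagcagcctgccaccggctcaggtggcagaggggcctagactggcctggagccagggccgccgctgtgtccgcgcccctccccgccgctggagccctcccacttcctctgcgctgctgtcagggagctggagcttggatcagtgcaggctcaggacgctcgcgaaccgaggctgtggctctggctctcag
Itga2: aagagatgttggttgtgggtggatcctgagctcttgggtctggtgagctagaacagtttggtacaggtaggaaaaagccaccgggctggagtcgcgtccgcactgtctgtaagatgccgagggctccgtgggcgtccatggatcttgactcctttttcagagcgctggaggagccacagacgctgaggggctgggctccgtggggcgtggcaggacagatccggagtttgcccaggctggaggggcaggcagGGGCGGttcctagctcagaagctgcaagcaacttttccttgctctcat
Itga5: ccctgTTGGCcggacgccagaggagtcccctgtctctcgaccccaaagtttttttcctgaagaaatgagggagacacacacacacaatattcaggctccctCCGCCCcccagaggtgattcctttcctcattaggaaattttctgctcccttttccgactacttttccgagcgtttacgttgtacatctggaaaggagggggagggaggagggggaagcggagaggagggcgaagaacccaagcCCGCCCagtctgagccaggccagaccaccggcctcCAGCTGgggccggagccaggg

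The motifs searched were the full NFI site (an inverted pair of TTGGC), the single TTGGC that is one arm of it, the AP-1 site TGANTCA, the E-box CAGCTG and the GC box GGGCGG. Over 32851 windows of all genes they occurred in 0.0365%, 46.7%, 7.81%, 16.3% and 35.7%. The Lamb3 window held 1 NFI arm and 1 E-box, and its peak was present in both libraries of 1399P1 and in no other library. The Itga5 window held 1 NFI arm, 1 E-box and 2 GC boxes. It had a peak in both libraries of 1373M1, in neither of 12N1G and 1399M4 and in 1 of 2 in the other lines. The Itga2 window held 1 GC box, and its peak was missing from both libraries of 1398P2 and from replicate 2 of 1399M4. No listed motif occurred in the Itgb6 and Itga11 windows. The Itgb6 peak was present in both libraries of N2N1G and in 1 each of 12N1G and 1399P1. The Itga11 peak was present in all 6 RPR2 libraries, 1398M1 and 1399P1, and missing from 1399M4 and 1398P2.

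The first comparison asked whether RPR2 and Nfibf/f lines differ in the number of accessible regions at these genes. No member passed the threshold. The log2 number of scaled regions plus 0.5 was compared between 3 RPR2 and 4 Nfibf/f lines with limma, fitted on the 7067 genes that averaged 3 regions or more, 23 members among them. Of these, 0 of 23 had an adjusted p under 0.05, against 100 of 7067 genes (1.42%). At an unadjusted p under 0.05 there were 6 of 23, 2 higher and 4 lower in RPR2, where 21.8% of all tested genes were that low, 10.8% higher and 11.1% lower. The median log2 difference of the 23 was 0.13, with 13 above and 10 below 0, against a median of 0.00 over all genes. The scaled values of the genotypes did not overlap at 2 of 23 genes with RPR2 above (11.7% of all tested genes) and at 3 of 23 with Nfibf/f above (8.72%). Outside liver, genotype and tissue cannot be told apart in this comparison.

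Among the RGD receptors, the largest difference was at Itgb3 (chromosome 11, 104608000 to 104670476), which encodes the beta chain that pairs with the Itgav product and, in platelets, with that of Itga2b. It held 2, 2.5 and 2 regions in 12N1G, N2N1G and 1373M1 and 4, 5, 3 and 4 in 1398M1, 1399M4, 1398P2 and 1399P1. Every Nfibf/f line lay above every RPR2 line. RPR2 minus Nfibf/f came to -0.74 ± 0.16 on the log2 scale (SE; limma adjusted p = 0.0517), and without replicate 2 of 1398P2 it was -0.75 ± 0.12 (adjusted p = 0.0370).

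Its partner Itgav (chromosome 2, 83722303 to 83806917), the alpha chain of the vitronectin receptors, had the same direction. It held 2.5, 2.5 and 3 regions in the RPR2 lines and 5, 3.5, 4 and 5.5 in the Nfibf/f lines. The genotypes did not overlap, although 1399M4 came close to 1373M1. The difference on the log2 scale was -0.64 ± 0.16 (SE; limma adjusted p = 0.0745), and it was -1.35 ± 0.14 (adjusted p = 0.00666) with windows of 50 kb in place of 10 kb. That was the only one of 38 settings in which Itgav passed the threshold. Over them the difference ran from -1.35 to -0.47, and the adjusted p reached 0.257.

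Itgb5, another beta chain that pairs with Itgav, had the opposite sign. It held 13, 12.5 and 13 regions in the RPR2 lines and 13, 8, 8.5 and 10.5 in the Nfibf/f lines. The RPR2 lines were level with 1398M1 and above the other Nfibf/f lines before scaling. The 8.5 of 1398P2 was the mean of 13 in replicate 1 and 4 in replicate 2, the library with the fewest peaks. With a log2 difference of 0.37 ± 0.18, Itgb5 missed the threshold (limma adjusted p = 0.267).

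Itga5 (chromosome 15, 103344286 to 103366791), the alpha chain of the fibronectin receptor, split the RPR2 lines. It held 1.5 and 1 regions in the lymph node lines, 5.5 in 1373M1, and 4.5, 4, 2.5 and 4 in the Nfibf/f lines. The genotypes overlapped, and the log2 difference of -0.67 ± 0.41 (SE) had a limma adjusted p of 0.376. Itga2b, the platelet chain, was tested too and differed by 0.13 ± 0.13, while Itga8, Itgb6 and Itgb8 had means under 3 regions and were not tested.

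**Figure D3:**
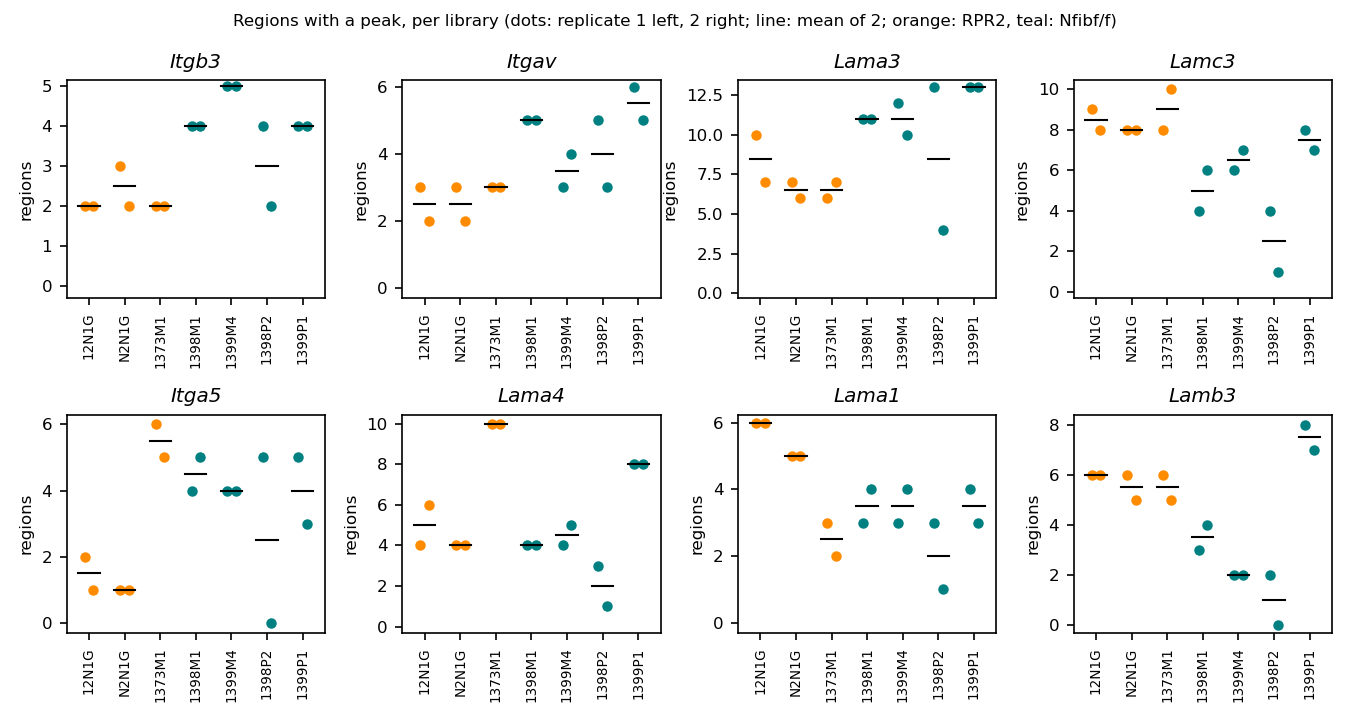
Number of regions with a peak (y axis) at 8 genes in each library (dots, replicate 1 left and 2 right) of the 7 lines (x axis), with the mean of the 2 libraries as a line, RPR2 in orange and Nfibf/f in teal. Itgb3, Itgav and Lama3 are lower on average in the orange lines, Lamc3 is higher, Itga5 is low in 12N1G and N2N1G, Lama4 is highest in 1373M1, and replicate 2 of 1398P2 is the lower library of its line in all 8 panels.

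The laminin receptors showed differences in both directions. Itga6, the alpha chain that epithelial cells use on laminin, held 6.5, 4.5 and 7.5 regions in the RPR2 lines and 7.5, 9.5, 7 and 9.5 in the Nfibf/f lines. Its log2 difference was -0.43 ± 0.18 (SE; limma adjusted p = 0.213), and the lines overlapped through 1373M1. Itgb4, its partner in hemidesmosomes, held 6.5, 6 and 6.5 regions against 6, 5, 3.5 and 6.5. Its scaled values were all higher in RPR2, by a margin of 6.02 over 5.92 at the nearest lines, with a log2 difference at 0.28 ± 0.15 (limma adjusted p = 0.293). Of its 9 regions, 8 also lay in the window of another gene. Itga7, the laminin receptor of muscle, held 3.5, 4 and 6 regions against 3, 2.5, 2 and 5, which overlapped through 1399P1 (log2 difference 0.50 ± 0.23, SE; limma adjusted p = 0.243). Itga3 had 3.5 to 5 regions in every line, and the common beta chain Itgb1 was under the minimum, with 1 to 2.5.

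The 4 collagen receptors were all tested. Itga11, the collagen receptor of mesenchymal cells, held 8, 7.5 and 6 regions in the RPR2 lines and 5.5, 4, 4.5 and 8.5 in the Nfibf/f lines. The high value of 1399P1 made the genotypes overlap, and RPR2 exceeded Nfibf/f by 0.37 ± 0.21 on the log2 scale (limma adjusted p = 0.340). Itga2 had 4 to 5 regions in the RPR2 lines and 5, 2, 0.5 and 5.5 in the Nfibf/f lines, with the low values in 1399M4 and 1398P2. Itga1 had log2 difference -0.05 ± 0.18, and Itga10 held the same 3 regions in all 14 libraries, each of them also in the window of a neighbor such as Rbm8a or Ankrd35.

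The laminin alpha chains had the most regions to compare. Lama3 (chromosome 18), the alpha chain of the anchoring laminin of epithelia, held 8.5, 6.5 and 6.5 regions in the RPR2 lines and 11, 11, 8.5 and 13 in the Nfibf/f lines. After scaling, the Nfibf/f lines at 10.39 to 11.46 all lay above the RPR2 lines at 6.53 to 8.51. The genotypes were -0.56 ± 0.15 apart on the log2 scale (SE; limma adjusted p = 0.0779).

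Lama2, the chain of muscle and nerve basement membranes, had 7, 8 and 10.5 regions in the RPR2 lines and 8.5, 6, 2 and 8 in the Nfibf/f lines. Most of the distance came from 1398P2, which had 4 regions in replicate 1 and 0 in replicate 2, the library with the fewest peaks. The log2 difference was 0.59 ± 0.34 (SE; limma adjusted p = 0.346), and without line 1398P2 it was 0.26 ± 0.21. Lama1, a chain of embryonic basement membranes, held 6, 5 and 2.5 regions against 3.5, 3.5, 2 and 3.5. Both lymph node lines lay above all others, for a log2 difference at 0.42 ± 0.25 (limma adjusted p = 0.353). Without line 1373M1 it was 0.75 ± 0.17 (adjusted p = 0.0374), a comparison of lymph node lines alone with the Nfibf/f lines. Of 40 settings, that was the only one in which Lama1 passed, and the adjusted p reached 0.785. Lama4 had 5, 4 and 10 against 4, 4.5, 2 and 8, and Lama5, the widespread alpha chain of adult epithelia, had 9.5, 8.5 and 9 against 7.5, 10, 6 and 9.

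Of the gamma chains, Lamc3 (chromosome 2, 31887281 to 31949083) was the other member whose lines separated. It held 8.5, 8 and 9 regions in the RPR2 lines and 5, 6.5, 2.5 and 7.5 in the Nfibf/f lines. All RPR2 lines were higher. The log2 difference was 0.71 ± 0.23 (SE; limma adjusted p = 0.123), and 0.65 ± 0.19 without replicate 2 of 1398P2 (adjusted p = 0.0993). The regions chr2:31924357-31925250, inside the gene, and chr2:31952102-31952819, past its end, were present in both libraries of all RPR2 lines and of 1399P1 and in no library of the other Nfibf/f lines.

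Lamb3, a beta chain that assembles with Lama3, had the opposite sign to it. Lamb3 (chromosome 1, 193294353 to 193343878) held 6, 5.5 and 5.5 regions in the RPR2 lines and 3.5, 2, 1 and 7.5 in the Nfibf/f lines. The RPR2 lines were close together, and 1399P1 lay above them while the other Nfibf/f lines lay below. The log2 difference was 0.91 ± 0.40 (SE; limma adjusted p = 0.224). Lamc1 had 2.5 to 6 and Lamb1 2 to 4 regions over the 7 lines. Lamb2 had 2 in every line but 1398P2, with 1.5. Its scaled values did not overlap between genotypes, although the counts of 6 lines were equal.

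**Figure D4:**
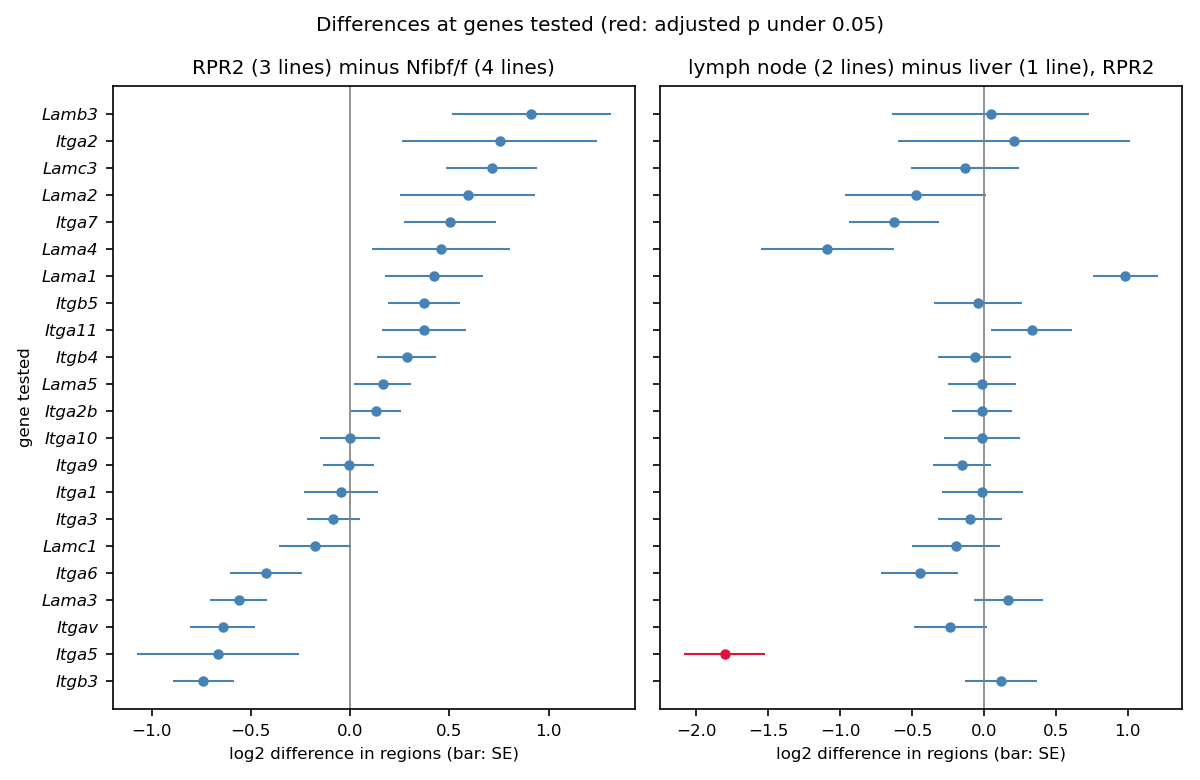
Log2 difference in regions (x axis, points, with SE as bars) for genes tested (y axis, ordered by the left panel), for RPR2 minus Nfibf/f on the left and lymph node minus liver among RPR2 lines on the right. Red marks an adjusted p under 0.05, which Itga5 alone reached, at -1.80 in the right panel, while the left panel runs from -0.74 at Itgb3 to 0.91 at Lamb3 with no red point.

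The other comparisons separated tissue from genotype as far as the lines allow, in 1 limma fit of all 7 lines in 4 groups. Between lymph node and liver among RPR2 lines (2 against 1), Itga5 was the one member of 23 past the threshold, where 1.83% of all genes were. The lymph node lines had 1.5 and 1 regions and 1373M1 had 5.5, -1.80 ± 0.28 on the log2 scale (SE; limma adjusted p = 0.0188). The liver group is 1 line that is assumed to vary like the others, and without replicate 2 of 12N1G the adjusted p was 0.0551. Without replicate 2 of 1398P2, from a line outside this contrast, it was 0.0391.

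Of the 7 regions at Itga5, 12N1G had a peak in both libraries in 1, the region over the gene end at chr15:103365861-103367193, and N2N1G in none. Both libraries of 1373M1 had peaks in 5, and replicate 1 had the region 7.6 kb before the low end as well. Local background could be solved there in 11 libraries and was 1.12 to 3.12 times the floor of the library. It could not be solved in either library of N2N1G, so its part in the missing peaks of that line was not tested.

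A further 3 members had an unadjusted p under 0.05 in this comparison, which makes 4 of 23 against 12.8% of all genes. Lama4 was lower in the lymph node lines, with 5 and 4 regions against 10 (log2 difference -1.09 ± 0.46, SE; limma adjusted p = 0.380). Lama1 was higher, with 6 and 5 against 2.5 (0.99 ± 0.23; adjusted p = 0.0962). Neither these nor the other one passed the threshold.

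Within liver, 1 RPR2 line against 2 Nfibf/f lines, 0 of 23 members passed the limma threshold, against 1.13% of all genes, and 4 had an unadjusted p under 0.05 (13.2% of all genes). Itgb3 had 2 regions in 1373M1 against 4 and 5, -0.93 ± 0.25 on the log2 scale (SE; limma adjusted p = 0.163). Lama3 had 6.5 against 11 and 11 (-0.65 ± 0.24; adjusted p = 0.297). Itga7 had 6 against 3 and 2.5 (1.06 ± 0.31; adjusted p = 0.201), and Lama4 had 10 against 4 and 4.5 (1.21 ± 0.46; adjusted p = 0.316). Itgb3 and Lama3 thus had in liver the sign they had over all lines, from a comparison that shares its lines with the first. Between liver and lung among Nfibf/f lines, 2 against 2, 0 of 23 members passed (0.0991% of all genes) and 0 had an unadjusted p under 0.05 (6.42% of all genes). The differences there ran from -0.47 at Itga11 to 0.65 at Lama2.

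Read region by region, a split by genotype was rare. A single region of the 306 (0.327%, against 1.12% over all genes) had a peak in all 6 RPR2 and none of the 8 Nfibf/f libraries. It lay inside Itga11, at chr9:62732450-62733079, 54.9 kb from the low end of the gene. No region had the reverse pattern (0.691% over all genes). Inside Itgb3, a region at chr11:104617620-104618635 was missing from all RPR2 libraries and present in 7 of 8 Nfibf/f libraries, 1 library short of it, the exception being replicate 2 of 1398P2. At chr11:104663662-104664726 Itgb3 had a peak in 1 of 6 RPR2 libraries and in the same 7 Nfibf/f libraries. The regions over the low end of Itgb3 and 17.8 kb inside it were present in all 14 libraries.

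**Figure D5:**
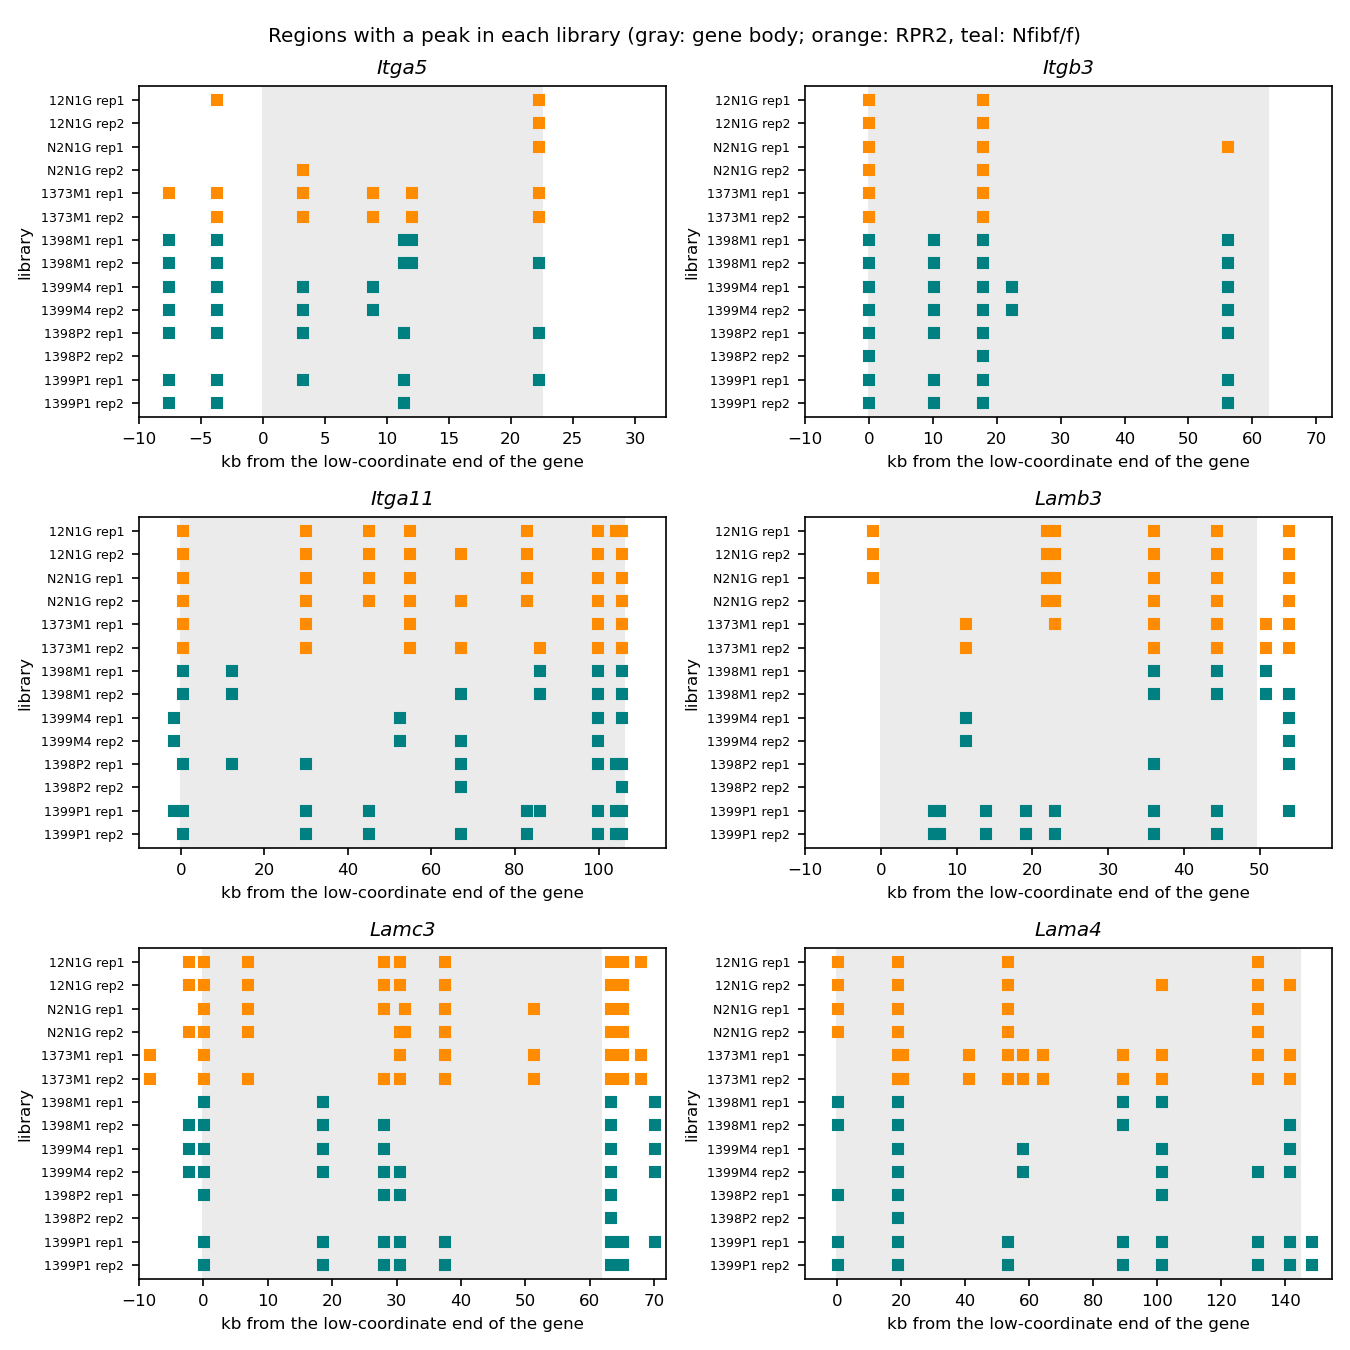
Position of each region with a peak (squares; x axis, kb from the low-coordinate end of the gene) in each of the 14 libraries (y axis), for 6 genes, with the gene body in gray, RPR2 in orange and Nfibf/f in teal. At Itga11 an orange column without teal stands at 54.9 kb, at Itgb3 a teal column without orange near the low end, at Itga5 the lymph node rows are nearly empty, at Lamb3 a group of squares appears in 1399P1 alone, and at Lamc3 the columns at 37.5 and 65.2 kb are orange but for 1399P1.

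In all, 6 regions were 1 library short of the pattern open in RPR2 (1.96%, against 1.52% over all genes) and 3, with the one in Itgb3, were 1 short of the reverse (0.980%, against 1.39%). Those with all 6 RPR2 and 1 Nfibf/f library lay inside Itgb6 (chr2:60713699-60714185), Itgam (chr7:128098892-128099384), Itga9 (chr9:118622367-118622995) and Itgb5 (chr16:33941009-33942062). Those with 5 RPR2 and 0 Nfibf/f libraries lay inside Lamc3 (chr2:31893996-31894534) and Itga6 (chr2:71837431-71837677). A region past the end of Itga9 (chr9:118910643-118911400) had 0 RPR2 and 7 Nfibf/f libraries, and 1 inside Itgb5 (chr16:33947894-33948469) had 1 RPR2 and 8 Nfibf/f libraries. These regions were singled out after their values were seen. Itga9 held regions of both directions, as did Itgb5, while the total of Itga9 differed by -0.01 ± 0.13 on the log2 scale.

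Regions open in all 7 lines were 38 of 306 (12.4%, against 19.1% over all genes), and 54 (17.6%, against 24.3%) had a peak in every library when replicate 2 of 1398P2 was set aside. Regions open in 1 line alone were 96 (31.4%, against 28.9%). The overlap of open member regions between 2 lines, as shared regions over all regions of either, was 0.748 for 12N1G and N2N1G. It lay between 0.285 and 0.331 for pairs with 1398P2 and between 0.390 and 0.515 for the others. The lymph node lines were thus far more alike than any other pair at these genes, as they were over all genes (0.801).

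Regions with a peak in both libraries of 1 line and in no other library were most numerous in 1373M1, with 13 (4.25%, against 2.59% over all genes), and 1399P1, with 13 (4.25%, against 1.48%). They numbered 7 in 1399M4 (2.29%, against 5.86%). In 12N1G there were 4 (1.31%, against 0.564%), at Itga8, Itga9 and Lama3, and in 1398M1 there were 4 (1.31%, against 1.4%), at Itga4, Itga9, Lama2 and Lama3. In N2N1G there were 2 (0.654%, against 0.416%), one of them at Lamc3, and in 1398P2 there was 1 (0.327%, against 0.197%), at Lamb1. Regions with a peak in all 4 lymph node libraries and in no other library numbered 6 (1.96%, against 2.42%). The 1399P1 regions gathered at Lamb3. There, 4 such regions lay between 193301267 and 193313580 on chromosome 1, and the second of them, chr1:193301914-193302330, overlapped the promoter window printed above. The 1373M1 regions included 3 at Lama2 and 3 at Lama4, although the gene end of Lama4 had no peak in that line. Itgb3, which had the smallest p between genotypes, had 1 such region, in 1399M4.

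Genes that work with these receptors and chains were read from 2 lists. Of 42 genes of the adhesion machinery inside the cell, 30 were tested between genotypes, with a median log2 difference of -0.04. At a limma adjusted p under 0.05, 0 were higher and 1 lower in RPR2, against 1.42% of all tested genes in either direction. The one was Vcl, encoding vinculin, which links integrins to actin. Its scaled values were 2.00, 1.51 and 2.02 in the RPR2 lines and 3.46, 5.67, 5.56 and 4.41 in the Nfibf/f lines. They did not overlap, as at 8.72% of all tested genes with Nfibf/f above. The log2 difference was -1.15 ± 0.19 (SE, limma adjusted p = 0.0325). Vcl was not called with lines that share a number averaged, where 0 of 6938 genes were. No gene was called lower in RPR2 without replicate 1 of 1398P2, without replicate 1 of all lines, or with peaks required in both libraries. The other settings were not followed for Vcl. Parvb, an actin-binding partner of integrin-linked kinase, followed with 0.76 ± 0.19 (adjusted p = 0.0716).

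Of 26 laminin partners and integrin ligands, 12 were tested, with 0 called between genotypes (1.42% of all tested genes) and a median of 0.03. Fbln2, a matrix protein that binds laminin, had 0.63 ± 0.17 (limma adjusted p = 0.0848). The other comparisons called Sdc4, a heparan sulfate co-receptor of integrins, and Npnt, a ligand of the Itga8 receptor. These calls rest on 1 RPR2 liver line, 1373M1, which is assumed to vary like the others. Neither gene was called without scaling or with replicate 1 dropped from all lines. The shares of all genes past the threshold in these comparisons are given with the members above. Sdc4 had scaled values of 4.50 and 4.52 in the lymph node lines, 0.51 in 1373M1 and 3.09 to 3.78 in the Nfibf/f lines. The RPR2 liver line stood alone at the bottom, with a log2 difference of 2.32 ± 0.24 for lymph node minus liver (limma adjusted p = 0.00292) and -2.03 ± 0.24 for RPR2 minus Nfibf/f in liver (adjusted p = 0.00795). Npnt was also lowest in 1373M1, at 1.01 against 3.00 and 3.01 in the lymph node lines and 3.46 to 4.72 in the Nfibf/f lines (-1.59 ± 0.25 in liver, adjusted p = 0.0270). No gene of either list was called between liver and lung, where 0.0991% of all tested genes were.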

How the data were processed

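The authors deposited a separate peak list for every library. The submitters' processing notes name MACS2, Bowtie2, SAMtools, Picard and cutadapt 2.10 and the builds GRCm38 and mm10. How they were set, and whether reads were shifted to the insertion site, is not given in the sources used here. The fold enrichment of each summit, a ratio to local background, and its -log10 p-value and -log10 q-value were deposited by the authors, with a lowest -log10 q of 1.3; the deposited score was not used. Peaks sharing 1 bp were merged into 177684 regions, and the 119359 with a peak in both libraries of at least 1 line were kept. Each gene (RefSeq extents on GRCm38.p6, without strand or exons, so no exon, intron or UTR is assigned) received the regions within 10 kb. Of the 306 member regions, 57 (18.6%) also lay in another gene's window. Counts were averaged over the 2 libraries of a line, scaled by the line's total over genes and tested as log2 of the value plus 0.5 in R 4.3.3 with limma 3.58.1, using moderated variances with a trend, on genes averaging 3 regions or more, two-sided, with Benjamini-Hochberg adjustment over all of them at 0.05. This scale understates changes of genes with few regions.

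Depth came from fold enrichment and p, which together fix pileup and local background in a Poisson model; 99.0% of pileups came out whole within 0.02, and the lowest background of a library is its floor. On data simulated for RPR2 minus Nfibf/f (7067 genes), 36% of 100 genes changed 2-fold and 98% of 100 changed 4-fold were called. Of 6867 unchanged genes, 0 were called. The simulation drew independent Poisson counts for 7 lines, with no further spread between lines and no low library. Its rates need not hold for these lines. Genes with values in every line were the members past the threshold, the 12 with the smallest p between genotypes, and those whose genotypes did not overlap or that held a region split by genotype; others were chosen after their values were seen. The members and lists were chosen with earlier results of these data known. Alternatives covered offset, filter, peak threshold, merging, window, scaling, trend, left-out libraries and lines, and averaging of lines. Counting all merged regions was added after seeing the data. Replicate numbers were not treated as pairs. The values of 1 member and of a few other genes are not reported here, though counts over lists include them.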

Additional observations from a re-analysis of the deposited data

Results flagged for a closer look

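Among the 4 Nfibf/f lines, 2 of the 37 genes had a line far from the other 3, where chance marks about 1 in 20 groups. Itgav had 3.31 scaled regions in 1399M4 against 4.85 to 4.94 in the others, with 3 and 4 regions in its 2 libraries. Itga1, a collagen receptor, had 6.17 scaled regions in 1399P1 against 3.46 to 3.78 in the others, with 7 regions in each library.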

How the results depend on the processing

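The count of members that differed between genotypes, 0 of 23, was 1 with an offset of 1, a minimum mean of 1 region, windows of 50 kb and no trend, and it ranged from 0 to 3 when a library or line was left out. It was 1 without N2N1G replicate 1 or 1398P2 replicate 2 (Itgb3) or 12N1G replicate 1 (Lama3), and 3 without line 1373M1 (Itgb3 and Lama1 among them). Itgb3 had adjusted p values of 0.0139 to 0.254 over 37 settings. Correlations of same-numbered libraries across the 21 pairs of lines ran from -0.0952 to 0.113, so the numbers gave no pairing. With the replicate block, 1 member was called between genotypes (Itgb3) and 0 between lymph node and liver.

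For lymph node minus liver, the count of 1 became 0 with a minimum mean of 5, no filter, a -log10 q of at least 5, equal peaks per library, the gene body alone, no scaling, and peaks in both libraries. It ranged from 0 to 2 with a library left out or one replicate number dropped. It was 0 without 12N1G replicate 2, without 1398P2 replicate 1, and with either replicate number dropped from all lines. It was 2 without 1373M1 replicate 1, where Lama1 joined, and 2 without N2N1G replicate 1, where another member joined. Itga5, with a mean of 3.29 regions, was not tested in 7 of 32 settings and lost its call in 6. It was -0.86 (adjusted p = 0.176) with windows of 50 kb, where Lama1 was called instead (1.09, adjusted p = 0.0328). The liver comparisons called 0 members in all 32 settings each.

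The count of regions split by genotype, 1 of 306, was 2 of 255 at a -log10 q of at least 5 and 6 of 134 with equal peaks. It was 5 of 514 with windows of 50 kb and 11 of 306 when 1 library of each line sufficed. With a library or line left out it was 1 to 9 of 306, and 9 without 1373M1 or 1399P1. The share over all genes was not computed in these settings, so their counts cannot be set against it. Over all genes, calls ranged from 0 to 415 (main 100) between genotypes and 0 to 175 (80) in liver. They ranged from 0 to 14 (7) between liver and lung and 0 to 249 (129) between lymph node and liver. With 12N1G and N2N1G averaged into 1 line, 2 of 7082 genes were called between genotypes. With lines that share a number averaged, 0 of 6938 were. The main fit, with 100 of 7067, counts each of these lines as a replicate. The genotype differences of 13 members and the lymph node difference of Itga5 kept their sign in every setting run for them, and the signs of other named genes were not followed. The causes were not tested. Depth limits the lists, since a weak site in a shallow library may have no peak.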
